A study of Homo sapiens with 10 samples.

Results

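Molecular chaperones and their partners were followed in newly made and in total RNA of K562 cells after 2 hours with 4 inhibitors of transcription. The set holds 40 genes, chosen by name and function: HSP70, HSP110 and HSP90 proteins, their cochaperones, the mitochondrial chaperonin, HSPB1 and SERPINH1, the heat shock factors HSF1 and HSF2, and the 8 subunits of the chaperonin TRiC. All 40 were found among the 59204 genes listed in the deposited counts. This set and the lists used below were chosen with earlier results of these data known. Counts of called genes in them are therefore no independent test. K562 is an established line grown from a chronic myeloid leukaemia, so the values describe 1 transformed line and no normal cell type.

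There were 10 libraries, 2 in each of 5 groups. The control group received DMSO, the solvent. The others received Actinomycin D at 1 µg/mL, which binds DNA and blocks RNA polymerases, or 1 µM of AZ-5576, an inhibitor of the elongation kinase CDK9, of JQ1, which displaces BET bromodomain proteins from chromatin, or of A-485, which blocks the acetyltransferases CBP and p300. Every group, the control included, was given 100 µM 4-thiouridine for the final 1 hour. This uridine analogue enters new RNA and, after chemical treatment, is read as a T-to-C change, so reads that carry the change mark RNA made in that hour. Labelled and total reads were counted per gene in libraries that read 1 position near the 3′ end of each mRNA, so a count is not scaled to gene length. Total counts can thus be set beside those of another gene. Whether a read is called labelled also depends on the T bases it covers. Labelled levels and shares were not corrected for this, so their order between genes is not an order of synthesis or turnover.

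Cells keep proteins folded with chaperones that hold or fold client chains. HSP70 proteins bind unfolded stretches with the help of J proteins, which start the cycle, and of HSP110 and BAG proteins, which exchange the nucleotide that HSP70 holds. HSP90 matures kinases and receptors with its own cochaperones, HSPD1 and HSPE1 fold proteins in mitochondria, and TRiC, a ring of paralogous subunits, folds actin and tubulin. HSF1 is the factor that switches on many of these genes in heat or when misfolded protein builds up, by binding inverted repeats of a short GAA unit. TRiC and the constitutive members are also made steadily in growing cells.

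Human reads ran from 14916671 to 17918971 per library and spike-in reads, from Drosophila RNA added to the purified RNA, from 1817677 to 2212752. Levels below are reads per 1000000 spike-in reads, called the labelled level and the total level. The spike-in scales to purified RNA, so a change of RNA per cell is not seen, and in these bulk samples fewer cells of a kind and less RNA per cell cannot be told apart. The 10 K562 markers had counts in every library (summed counts 101998 to 128688), and 14 markers of other cells summed to 1458 to 1679, with 4 to 7 of them at 0. Nothing in the labels says whether the 2 libraries of a group came from separate cultures, so the p-values measure only the spread between these libraries, which may be technical. Every drug is set against the same DMSO pair, so the comparisons with DMSO are not independent of each other.

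In DMSO the 40 genes took 2.20 and 2.24% of all human reads and 1.34 and 1.37% of labelled reads. HSPA8, the constitutive HSP70 of the cytosol, had the highest labelled level, at 528.1 and 503.4. HSP90AB1, the constitutive HSP90, followed at 371.9 and 379.6, and HSP90AA1, its inducible partner, at 290.7 and 303.1. HSPB1, a small heat shock protein, stood at 265.4 and 282.8, just under HSP90AA1 and clear of it in both libraries. CCT3 led TRiC at 148.8 and 138.6, with CCT6A next at 107.6 and 138.1, whose upper library came close to the lower one of CCT3. The order among total levels was another: HSP90AB1 (30212 and 35572) and HSPB1 (28382 and 33557) overlapped at the top, above HSP90AA1 (24018 and 24843) and HSPA8 (14786 and 14967).

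The labelled share, the percent of a gene's reads that carried the change, differed widely between members. It was lowest for SERPINH1, a collagen chaperone, at 0.426% ± 0.0252 (SD, n = 2), followed by HSPB1, at 0.889% ± 0.0652 (SD, n = 2), and the TRiC subunit CCT7, at 0.892% ± 0.227 (SD, n = 2), which lay within each other's spread. It was highest for the J proteins DNAJB4, at 25.5% ± 3.39 (SD, n = 2), and DNAJB1, at 14.9% ± 1.92 (SD, n = 2). HSPA1B and BAG3, stress-induced partners in the same cycle, had 11.5% ± 1.24 and 10.7% ± 1.76 (SD, n = 2 each). Summed by role, TRiC stood at 1.69% ± 0.0966 and HSP90 at 1.18% ± 0.0649, while J proteins reached 5.12% ± 0.285 and BAG factors 5.86% ± 0.363 (SD, n = 2 each). HSPA1A, the near copy of HSPA1B, had 3.00% ± 0.427 (SD, n = 2). Of the 50-base windows in the last 500 bases of HSPA1A, 22.2% also occur in HSPA1B, and 1.11% the other way round, so reads of the pair may be split between them and both are uncertain. The pair lies on hg38 at chr6:31815464-31817946 and chr6:31827735-31830255, DNAJB1 at chr19:14514770-14529770 and HSPB1 at chr7:76302544-76304295, all protein-coding genes.

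With JQ1 the called members moved in both directions. The stress-inducible HSP70 genes HSPA1A and HSPA1B and the J protein DNAJB1 rose in labelled RNA, while HSPB1, 5 of 8 TRiC subunits and several cochaperones fell. Of the 38 members with enough labelled reads to test (HSPA4L and DNAJB2 had too few), 11 were lower and 3 higher. Among all 7996 genes tested, 28.6% were lower and 1.26% higher, so the share of members that were lower was near that of all genes. The median member changed by -0.47 on the log2 scale, against -0.85 for all genes tested. Tests were edgeR's quasi-likelihood test with spike-in scaling, and a call means a Benjamini-Hochberg adjusted p under 0.05 over all genes tested.

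Labelled HSPA1A was at 160.4 and 131.5 in DMSO and at 283.4 and 236.2 with JQ1. Both JQ1 libraries lay above both controls, and the log2 fold change was 0.83 (SE 0.20, edgeR adjusted p = 0.000432). HSPA1B went from 83.36 and 61.07 to 145.5 and 130.6, a log2 fold change of 0.93 (SE 0.24, edgeR adjusted p = 0.00102). DNAJB1, which couples to these HSP70s, went from 108.7 and 94.08 to 130.6 and 168.0, again without overlap, by 0.56 (SE 0.22, edgeR adjusted p = 0.0439). All 3 rises missed the threshold without the second DMSO library, with adjusted p of 0.0661, 0.106 and 0.314 and the direction kept. DNAJB1 also missed it without the first DMSO library (0.125), without the second JQ1 library (0.352) and with no filter on low counts (0.116).

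**Figure D1:**
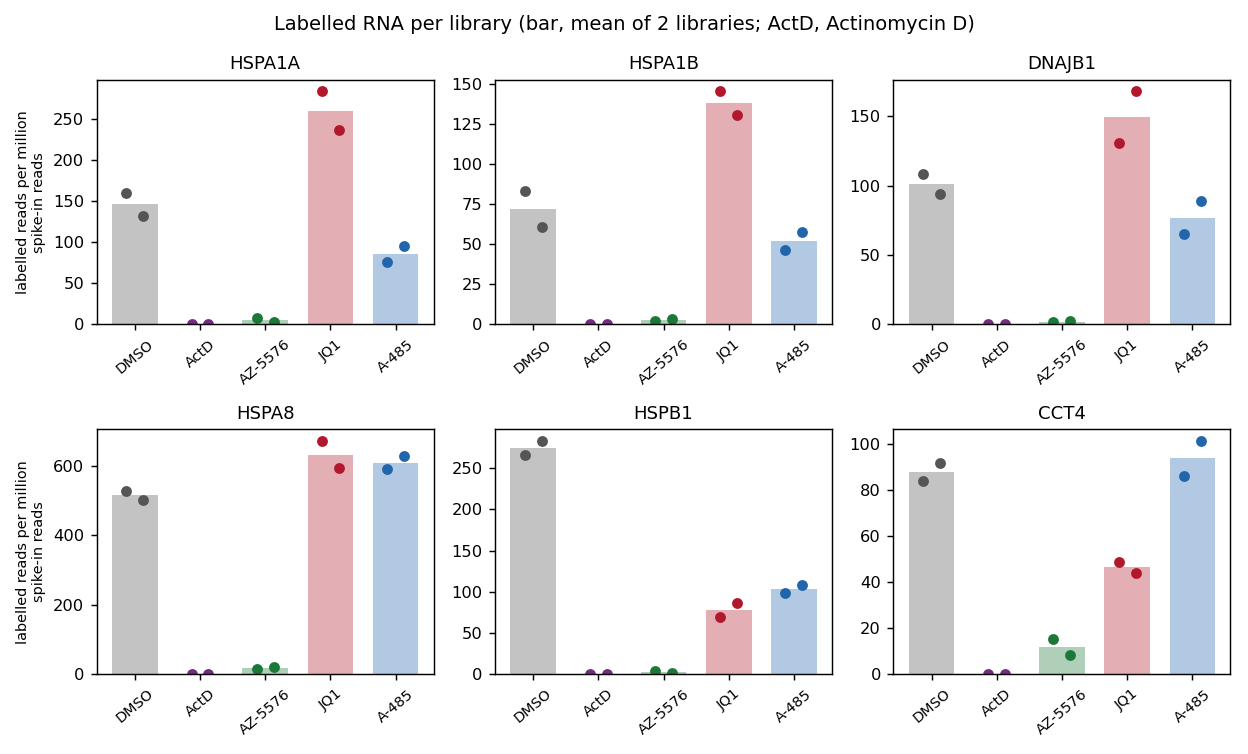
Labelled reads per 1000000 spike-in reads (vertical axis) of 6 members in each of the 5 groups (horizontal axis); points are libraries and bars the mean of 2. HSPA1A, HSPA1B and DNAJB1 lie above DMSO with JQ1, HSPB1 lies below it with both JQ1 and A-485, and CCT4 lies below it with JQ1 and not with A-485.

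The constitutive HSPA8 and both HSP90 genes did not pass the test. HSPA8 was at 672.0 and 593.0 with JQ1, above both controls, with a log2 fold change of 0.29 (interval -0.01 to 0.60, 95%). HSP90AB1, at 412.2 and 382.9, changed by 0.08 (interval -0.24 to 0.41), and HSP90AA1, at 313.2 and 357.8, by 0.18 (interval -0.16 to 0.52). These intervals leave out a doubling. The mitochondrial HSP70 HSPA9, its relatives HSPA13 and HSPA14, and the HSP110 gene HSPH1 had estimates between -0.84 and 0.12 and did not pass, nor did the J proteins DNAJA1, DNAJA3, DNAJB4 and DNAJB6, between -0.89 and 0.54. HSPA4, an HSP110, fell from 39.57 and 45.66 to 16.27 and 22.72 (log2 fold change -1.13, SE 0.37, edgeR adjusted p = 0.0120). DNAJA2, a J protein of the cytosol, was at 14.24 and 23.11 in DMSO and at 9.942 and 3.313 with JQ1 (log2 fold change -1.48, SE 0.56, edgeR adjusted p = 0.0312). The call on HSPA4 was lost without the first DMSO (0.0622), the second DMSO (0.141) or the first JQ1 library (0.12). The call on DNAJA2 was lost without the first DMSO (0.0551), the second DMSO (0.337) or the second JQ1 library (0.316), with log2 fold changes from -2.47 to -0.90 over the 4 libraries left out in turn. BAG1 (33.24 and 26.41, then 13.11 and 18.93) and BAG3 (20.05 and 26.96, then 27.12 and 28.40) did not pass.

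HSPB1 was the clearest fall. Its labelled level went from 265.4 and 282.8 to 69.60 and 86.14, by -1.82 on the log2 scale (SE 0.21, edgeR adjusted p = 4.95e-15), and its labelled share fell by 1.88 (SE 0.20, edgeR adjusted p = 1.06e-11). It was the only member still called lower when libraries were scaled by TMM, which takes most genes as unchanged. Under TMM, 1 member was lower and 9 were higher: HSPA1A, HSPA1B, HSPA8, HSP90AA1, HSP90AB1, DNAJA1, DNAJB1, DNAJB6 and BAG3. TMM moves the median of all genes by 0.86, so TMM gives the change against the typical gene, which itself lost label.

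Among HSP90 cochaperones, CHORDC1 fell from 10.55 and 9.353 to 1.356 and 1.893 (log2 fold change -2.57, SE 0.83, edgeR adjusted p = 0.0110), on 3 and 4 labelled reads with JQ1. FKBP4, a prolyl isomerase that rides on HSP90, fell from 25.32 and 30.81 to 6.327 and 10.89 (log2 fold change -1.70, SE 0.49, edgeR adjusted p = 0.00353). PTGES3, the cochaperone p23, was at 64.36 and 50.06 and then at 58.30 and 38.81, with overlap. The call on CHORDC1 was lost without the first DMSO (0.0867), the second DMSO (0.0592) or the first JQ1 library (0.0683), and that on FKBP4 without the second DMSO (0.0797) or the first JQ1 library (0.0724). STIP1, AHSA1 and CDC37 lay between -0.69 and -0.26 and did not pass. HSPE1, the lid of the mitochondrial chaperonin, fell from 73.86 and 117.2 to 42.93 and 72.89 (log2 fold change -0.72, SE 0.25, edgeR adjusted p = 0.0189), with 26 pseudogene copies that held 4300 total reads in DMSO against its own 13205, and under TMM its sign turned (0.15). This call was lost without the second DMSO (0.518) or the first JQ1 library (0.353). Its partner HSPD1 changed by -0.25 (interval -0.80 to 0.30). HSF1 (log2 fold change -1.38, interval -2.76 to 0.00) and HSF2 (13.19 and 18.71, then 15.82 and 10.41) rested on few labelled reads and did not pass.

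All 8 TRiC subunits had labelled estimates under 0 with JQ1, between -0.92 and -0.45, with a median of -0.59. CCT4 fell furthest, from 83.88 and 91.88 to 48.81 and 44.02 (log2 fold change -0.92, SE 0.26, edgeR adjusted p = 0.00283). CCT2 went from 71.22 and 77.57 to 51.52 and 39.28 (-0.71), and CCT8 from 84.41 and 79.77 to 47.90 and 55.85 (-0.66). CCT5 went from 80.72 and 107.3 to 59.65 and 59.64 (-0.65), and CCT3 from 148.8 and 138.6 to 105.8 and 94.19 (-0.52). In these 5, both JQ1 libraries lay under both controls, as they did for 23 of the 40 members, TCP1 included. The share of all genes in that position was not counted. The calls on CCT3, CCT5 and CCT8 were lost whichever of the 4 libraries was left out, with adjusted p of 0.0801 to 0.254, 0.0517 to 0.393 and 0.0729 to 0.211. The call on CCT2 was lost in 3 of the 4 cases and held without the first JQ1 library, and the call on CCT4 was lost without the second DMSO library (0.067). TCP1, CCT6A and CCT7 were at -0.50, -0.51 and -0.45 and did not pass. Summed over the ring, the labelled level was 65.8% of that in DMSO, against 136% for the 6 HSP70 genes and 109% for the HSP90 pair. Labelled reads of all genes fell too. They were 448401 and 434411 in DMSO, beside 1895506 and 1817677 spike-in reads. With JQ1 they were 342847 and 322771, beside 2212752 and 2112838. The TRiC sum thus fell along with labelled RNA as a whole. The HSP70 sum was mostly HSPA8, and 2 of its 6 genes, HSPA9 and HSPA14, had estimates under 0. Except for CCT4, the TRiC estimates were smaller than the fall of the median gene. Under TMM CCT2, CCT3, CCT5 and CCT8 took the opposite sign (0.15 to 0.34), and no subunit was called. The number of members called lower was 4 without the first DMSO library, 1 without the second, 4 without the first JQ1 library and 6 without the second.

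**Figure D2:**
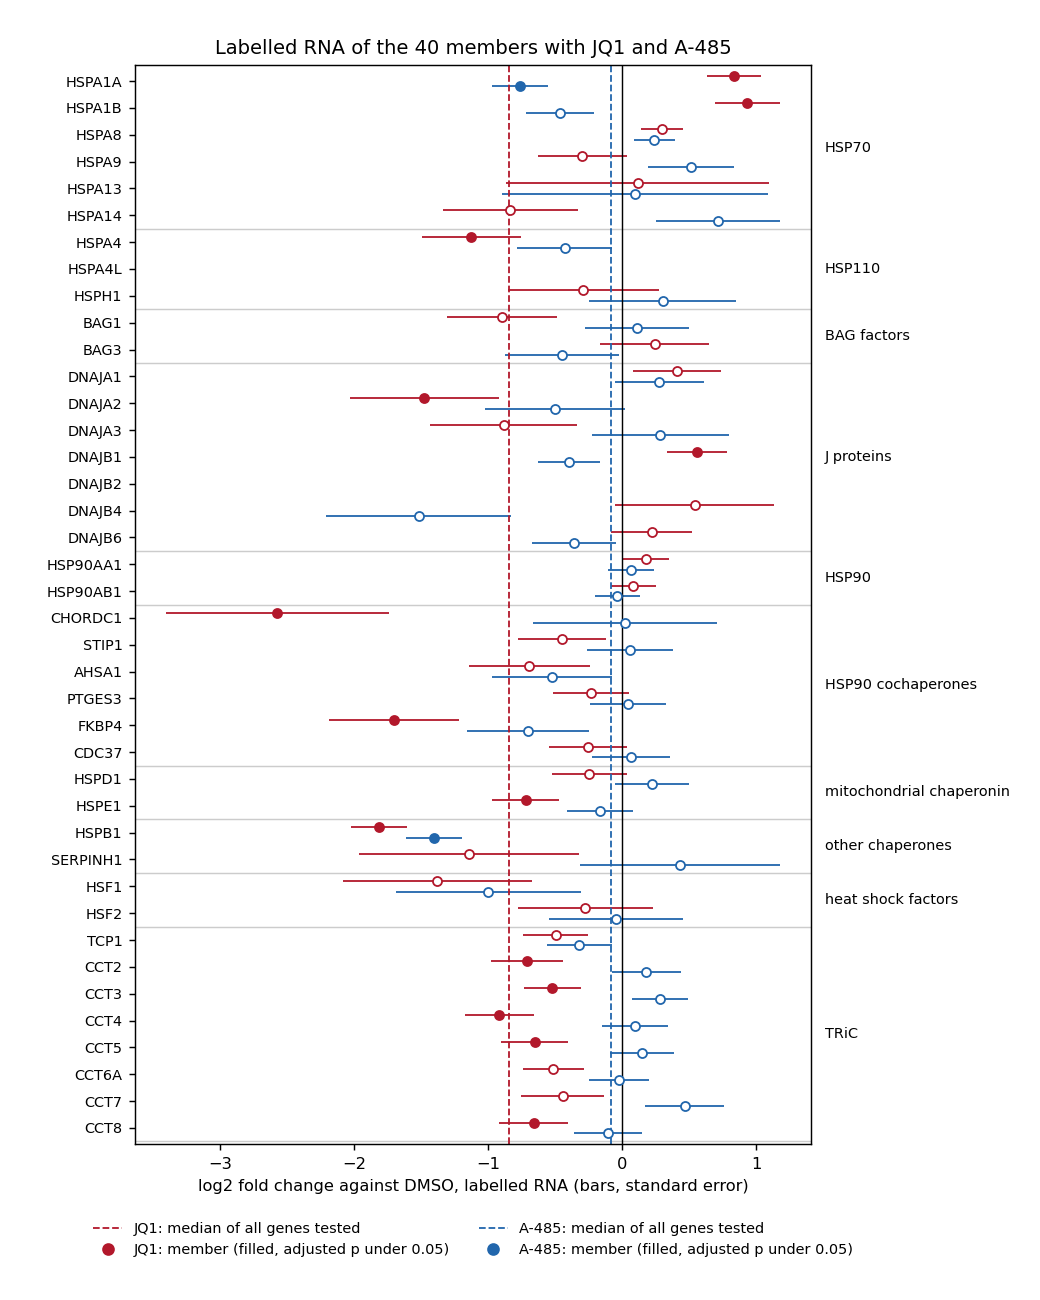
Log2 fold change in labelled RNA against DMSO (horizontal axis, bars are standard errors) of each member (rows, by role) with JQ1 and A-485; filled points passed an adjusted p under 0.05 and dashed lines are medians of all genes tested. With JQ1 the filled points to the right are HSPA1A, HSPA1B and DNAJB1, and the TRiC points lie between 0 and the line at -0.85 except CCT4.

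Counting labelled against unlabelled reads inside each library needs no scaling between libraries. By this share, 3 members were lower with JQ1 (HSPB1, CHORDC1 and FKBP4) and HSPA1A was higher, by 0.73 (SE 0.27, edgeR adjusted p = 0.0481). The background was 15.4% lower and 0.364% higher of 7960 genes tested. Without the first DMSO, the second DMSO or the first JQ1 library HSPB1 was the 1 lower member left and the call on HSPA1A was lost, and CHORDC1 also missed the threshold without the second JQ1 library (0.0756). All 8 TRiC shares had estimates under 0 and none passed.

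Promoter sequence is given for the 4 members that rose with JQ1 in labelled or total RNA, and for the pair that fell most in labelled RNA while holding the same motif. RefSeq (GRCh38.p14) listed promoters for 36 members. The search covered 300 bases per start, from 250 before to 50 after it, on both strands, for inverted GAA units: GAANNTTC and TTCNNGAA as 2-unit forms, and GAANNTTCNNGAA as a 3-unit form that contains one of each. Capitals mark every match. Only the 250 bases before the start are shown, and where several starts are listed, the one with most matches.
HSPA1A, chr6:31815293-31815542, + strand: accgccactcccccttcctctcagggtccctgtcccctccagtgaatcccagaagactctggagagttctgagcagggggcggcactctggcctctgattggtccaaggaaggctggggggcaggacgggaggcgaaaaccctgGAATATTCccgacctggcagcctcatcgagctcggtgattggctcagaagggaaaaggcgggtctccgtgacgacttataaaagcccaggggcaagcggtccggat
HSPA1B, chr6:31827488-31827737, + strand: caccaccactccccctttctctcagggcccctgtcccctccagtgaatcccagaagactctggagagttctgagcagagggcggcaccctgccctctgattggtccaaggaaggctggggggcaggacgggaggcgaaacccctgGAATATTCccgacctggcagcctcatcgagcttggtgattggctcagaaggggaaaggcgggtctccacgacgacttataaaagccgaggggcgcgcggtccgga
DNAJB1, chr19:14518398-14518647, - strand: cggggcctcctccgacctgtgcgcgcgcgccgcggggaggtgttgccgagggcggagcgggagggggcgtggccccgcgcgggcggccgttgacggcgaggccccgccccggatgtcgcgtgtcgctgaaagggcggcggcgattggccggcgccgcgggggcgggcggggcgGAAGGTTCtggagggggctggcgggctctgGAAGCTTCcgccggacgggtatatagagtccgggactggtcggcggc
DNAJB4, chr1:78004689-78004938, + strand: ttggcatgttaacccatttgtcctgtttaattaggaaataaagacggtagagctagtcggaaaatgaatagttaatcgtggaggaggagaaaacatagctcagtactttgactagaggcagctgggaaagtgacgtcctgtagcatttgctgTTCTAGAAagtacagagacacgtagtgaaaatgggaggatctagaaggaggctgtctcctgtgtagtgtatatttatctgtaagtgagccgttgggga
HSPB1, chr7:76302423-76302672, + strand: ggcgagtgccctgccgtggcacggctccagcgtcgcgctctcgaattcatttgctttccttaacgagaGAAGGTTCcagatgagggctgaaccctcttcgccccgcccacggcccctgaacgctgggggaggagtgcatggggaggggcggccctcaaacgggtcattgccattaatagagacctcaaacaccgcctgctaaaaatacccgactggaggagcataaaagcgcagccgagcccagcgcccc
CHORDC1, chr11:90223050-90223299, - strand: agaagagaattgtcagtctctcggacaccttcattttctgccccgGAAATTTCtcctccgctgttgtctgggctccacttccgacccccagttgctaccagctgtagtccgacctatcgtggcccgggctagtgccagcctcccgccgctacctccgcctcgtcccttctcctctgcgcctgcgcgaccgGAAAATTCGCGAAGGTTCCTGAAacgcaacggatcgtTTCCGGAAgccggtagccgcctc

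HSPA1A and HSPA1B carry 1 match to GAANNTTC at 106 and 105 bases before the start, DNAJB1 has 2 of them between 77 and 47 bases before it, and DNAJB4 has 1 match to TTCNNGAA at 98. HSPB1 has 1 match to GAANNTTC at 182 bases, and CHORDC1 has 3-unit matches. At least 1 listed start held GAANNTTC in 14 of 36 members (38.9%) and TTCNNGAA in 13 (36.1%), against 6.77% and 7.74% of all 35116 promoters, counted per start and not per gene. The 3-unit form was in 8 members, namely CHORDC1, DNAJA1, DNAJB6, HSP90AA1, HSP90AB1, HSPA8, HSPD1 and SERPINH1, and in 0.49% of all promoters. No TRiC promoter listed held it. With JQ1 and spike-in scaling none of those 8 genes was called higher in labelled RNA and CHORDC1 was called lower, while TMM called DNAJA1, DNAJB6, HSP90AA1, HSP90AB1 and HSPA8 higher. A match describes these letters and is not a bound site.

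With A-485, 2 members were lower in labelled RNA and none was higher. The background was 4.86% lower and 0.163% higher. For the members an unadjusted p under 0.05 gave 3 lower and 0 higher, and DESeq2 2 and 0. HSPB1 fell to 98.46 and 108.3 (log2 fold change -1.41, SE 0.21, edgeR adjusted p = 2.09e-09), and its labelled share fell by 1.48 (SE 0.20, edgeR adjusted p = 2.09e-08). HSPA1A fell to 76.13 and 95.74 (log2 fold change -0.76, SE 0.21, edgeR adjusted p = 0.00862), and this call was lost without the first DMSO library (0.478), without the first A-485 library (0.383) and under TMM (0.121). Under TMM the split was 1 lower (HSPB1) and 1 higher (HSPA8). HSPB1 was the 1 member called by the share, with 2 lower and 0 higher at an unadjusted p under 0.05, where the background was 2.64% lower and 0.0251% higher.

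No other member passed with A-485. The median member was at 0.03 and the median of all genes tested at -0.09. The estimates farthest from 0 among those not called were DNAJB4 (-1.52, interval -2.87 to -0.17), HSF1 (interval -2.35 to 0.36), HSPA14 (0.71, interval -0.20 to 1.62) and FKBP4 (-0.70, interval -1.60 to 0.19). HSPA1B, at 46.69 and 57.95, lay under both controls by -0.47 (interval -0.96 to 0.03), and DNAJB1, at 65.47 and 88.69, by -0.40 (interval -0.85 to 0.06). TRiC subunits ran from -0.32 to 0.47, and their summed labelled level was 106% of that in DMSO. HSPA8, at 590.3 and 627.9, was at 0.24 (interval -0.07 to 0.55). HSP90AB1, at 374.6 and 358.3, changed by -0.04 (interval -0.36 to 0.29).

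Set against each other in labelled RNA, the drugs differed at 13 members. Levels with A-485 were lower than with JQ1 for HSPA1A (log2 difference -1.60, SE 0.21, edgeR adjusted p = 3.43e-12), HSPA1B (-1.40), DNAJB1 (-0.95) and DNAJB4 (-2.06). DNAJB4 had 1.523 and 5.543 with A-485 and 19.88 and 9.939 with JQ1, on 3 to 44 reads. The background of genes lower with A-485 was 3.14%. Levels were higher with A-485 for 9 members, the TRiC subunits CCT2, CCT3, CCT4, CCT5 and CCT7 (log2 differences 0.80 to 1.01, and under TMM 0.17 to 0.38) and HSPA9, HSPA14, BAG1 and CHORDC1, with 24.8% of all genes higher. HSPB1 did not pass here, at 0.41. Under TMM 9 members were lower with A-485 and 0 higher. Without the first A-485 library 2 members were lower and 5 higher, without the second 1 was higher, and without the first JQ1 library 5 were higher. HSPA1A and HSPA1B were lower under each of these settings. The calls on HSPA9 and BAG1 were lost whichever library was left out, that on CCT7 in 3 of the 4 cases, and that on DNAJB4 without the first JQ1 (0.2) or the first A-485 library (0.205).

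Label was nearly gone with Actinomycin D. The 40 members held 8 labelled reads over both libraries, spread over 6 genes, against 11979 in DMSO, and the other 34 were at 0. All 38 tested were lower, as were 99.2% of all genes tested, and 0% were higher. HSPA8 had no labelled read against 1001 and 915 in DMSO, at least 720.4-fold lower with a floor of 3 counts over the group, and HSPB1 at least 382.8-fold lower. By the labelled share, again all 38 were lower, with a background of 98.6% lower and 0.0126% higher.

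AZ-5576 left a trace. The members held 607 labelled reads, which was 4.86% of the DMSO level after scaling, and 10 of 40 were at 0 in both libraries. All 38 tested were lower (background 94.7% lower and 0.2% higher), and by the share also all 38 (background 93.6% lower and 0.0503% higher). The fall varied between members that share a complex. CCT4 kept 15.32 and 8.253 and CCT8 12.03 and 7.282, log2 fold changes of -2.91 (SE 0.31) and -3.09 (SE 0.33). CCT5 kept 0.547 and 0.4855, or -7.35 (SE 0.51), with 1 read in each library. The J protein DNAJB6 and HSPA9 fell least, by 2.38 (SE 0.38) and 2.43 (SE 0.41). HSP90AB1 kept 47.59 and 36.41, -3.16 (SE 0.20), against -5.51 (SE 0.26) for HSP90AA1 at 7.112 and 5.826. HSPA1A, at 7.659 and 2.427, and HSPA8, at 14.22 and 19.91, fell by like amounts. Their estimates were -4.88 and -4.90, and the difference between the genes was not tested. TMM, which moves the median of all genes by 3.31, gave 16 lower and 2 higher here and 18 lower and 0 higher with Actinomycin D. With AZ-5576 the 2 higher ones were HSPA9 and DNAJB6, and HSP90AB1, CCT4 and CCT8 also took a positive sign.

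Total RNA holds the stock from before the drugs, and it moved little. With Actinomycin D 5 of 40 members were lower and 0 higher (background 19.7% lower and 0.336% higher), and the median member was at -0.06 against -0.27 for all 14572 genes tested. With AZ-5576 2 were lower and 0 higher (background 12.9% and 0.782%), with a median of -0.03 against -0.15. An unadjusted p under 0.05 gave 7 and 6 lower members and 0 higher, and DESeq2 5 and 2 lower and 0 higher. With TMM, Actinomycin D gave 3 lower and 11 higher, and AZ-5576 2 lower and 7 higher, as the median of all genes moved by 0.25 and 0.15.

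DNAJB1 was the member whose stock ran down furthest. From 670.5 and 697.0 in the controls, its total level came to 284.1 and 308.2 after Actinomycin D, and to 235.8 and 210.7 after AZ-5576. The groups did not overlap, and the log2 fold changes were -1.21 (SE 0.12, edgeR adjusted p = 3.63e-10) and -1.62 (SE 0.12, edgeR adjusted p = 4.17e-13). HSF2 went from 323.4 and 352.1 to 163.9 and 222.8 with Actinomycin D (-0.80, SE 0.14, edgeR adjusted p = 5.81e-05) and to 209.0 and 218.5 with AZ-5576 (-0.66, SE 0.14, edgeR adjusted p = 0.000900). BAG3, which links HSP70 to autophagy, was called lower with Actinomycin D, at 127.6 and 146.1 against 212.6 and 226.1 (-0.68, SE 0.16). With AZ-5576 it was at 181.6 and 167.5 and did not pass, and the difference between the drugs (0.35) did not pass either.

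The remaining calls with Actinomycin D were DNAJA2, at 156.9 and 144.2 against 193.6 and 240.4 (-0.53), and HSPA14, at 240.4 and 197.5 against 301.2 and 324.6 (-0.52). Both were lost without the second DMSO library (adjusted p of 0.257 and 0.0861) and without the second Actinomycin D library (0.109 and 0.126), which left 3 members called. HSPA14 overlaps a second gene model of the same name on its strand. In DMSO 11.5% of HSPA1B reads were labelled in 1 hour, and its total level was 704.7 and 618.8 with Actinomycin D against 673.2 and 574.4 in DMSO, with overlap (log2 fold change 0.08, interval -0.16 to 0.33). HSPA1B overlaps the gene AL671762.1. DNAJB4, with the highest share, changed by -0.04 with a wide interval of -0.59 to 0.51. Between AZ-5576 and Actinomycin D no member differed in total RNA by edgeR (background 0.371% lower and 2% higher), with 1 lower and 1 higher at an unadjusted p under 0.05 and 0 by DESeq2. DNAJB1 was nearest, at -0.41 (SE 0.12, edgeR adjusted p = 0.0685), and TMM called it lower.

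**Figure D3:**
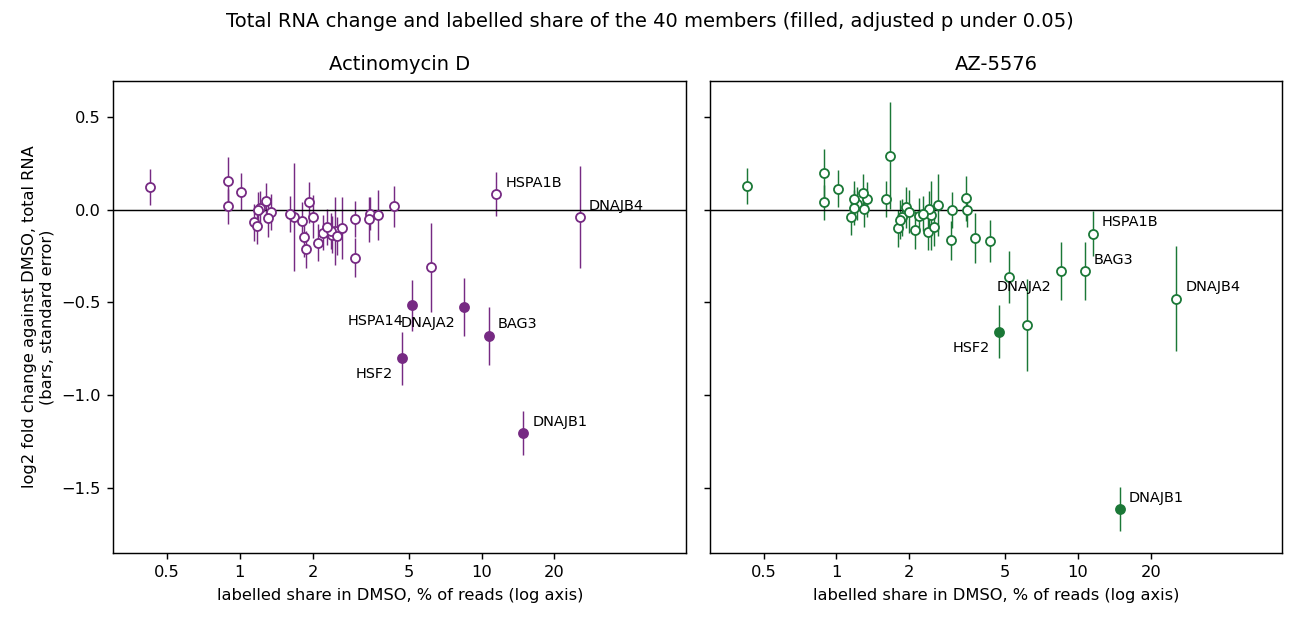
Labelled share in DMSO (horizontal log axis, percent of reads) against the log2 fold change in total RNA (vertical axis, bars are standard errors) of the 40 members with Actinomycin D and AZ-5576; filled points passed an adjusted p under 0.05. The called members lie between shares of 4.70% (HSF2) and 14.9% (DNAJB1), and HSPA1B at 11.5% lies near 0 with Actinomycin D.

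With JQ1 total RNA of 3 members was higher. DNAJB1 was at 987.5 and 1164 in total RNA (log2 fold change 0.65, SE 0.11, edgeR adjusted p = 0.000132), and HSPA1B at 987.0 and 827.8 (0.54, SE 0.12, edgeR adjusted p = 0.00258). DNAJB4, a close relative of DNAJB1, was at 88.58 and 79.99 against 32.18 and 50.06 (1.04, SE 0.26, edgeR adjusted p = 0.00913). All 6 JQ1 values lay above the controls of their gene. DNAJB4 was not called in labelled RNA (0.54), and it shares its strand and part of its span with GIPC2. Its labelled share was 25.5% ± 3.39 in DMSO and 17.4% ± 7.09 with JQ1 (SD, n = 2 each), and was not called. HSPA1A, at 4859 and 4876 in DMSO, did not pass, at 5251 and 5399 (0.13, interval -0.07 to 0.33). HSF2 was the 1 lower member, at 235.9 and 229.6 (-0.54, SE 0.14, edgeR adjusted p = 0.0120). The background was 7.35% lower and 0.837% higher, the median member was at -0.09 and that of all genes tested at -0.19. A fit with a term for the replicate number called more members lower than HSF2 alone. Under TMM 0 members were lower and 4 higher, HSPA1A added. HSPA1B and HSF2 lost the call without the second DMSO library (0.136 and 0.17) and DNAJB4 without the first (0.129). HSPB1 was at 26803 and 37917 against 28382 and 33557, with no change past the test.

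With A-485 DNAJB1 alone was called in total RNA, at 498.9 and 486.3 (log2 fold change -0.47, SE 0.12, edgeR adjusted p = 0.0208). The background was 1.2% lower and 0.0343% higher, and no member was higher by edgeR, at an unadjusted p under 0.05 or by DESeq2. The call was lost when any 1 of the 4 libraries was left out, with adjusted p from 0.0851 to 0.389 and log2 fold changes from -0.50 to -0.44. The median member was at -0.02.

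**Figure D4:**
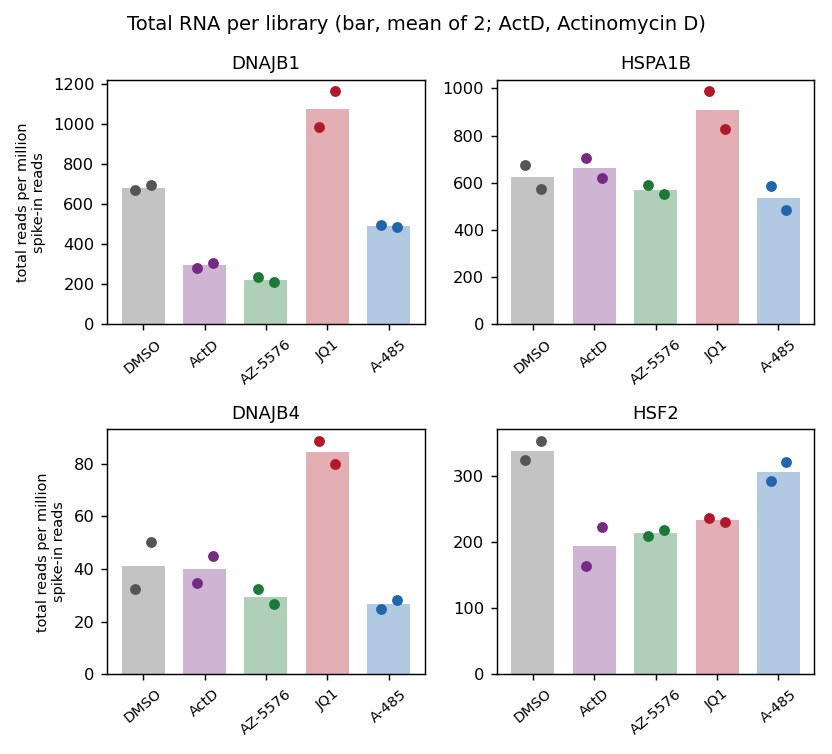
Total reads per 1000000 spike-in reads (vertical axis) of DNAJB1, HSPA1B, DNAJB4 and HSF2 in the 5 groups (horizontal axis); points are libraries and bars the mean of 2. DNAJB1 is below DMSO with Actinomycin D, AZ-5576 and A-485 and above it with JQ1, and HSF2 is below DMSO with Actinomycin D, AZ-5576 and JQ1.

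Other genes of the chaperone network were counted from a list of 50, of which 40 were tested in labelled RNA and 44 in total RNA. With JQ1 16 were lower and 1 higher in labelled RNA, with a median of -0.84, close to that of all genes, and a background of 28.6% lower. The higher one was HSPA5, the HSP70 of the endoplasmic reticulum (0.61, SE 0.21, edgeR adjusted p = 0.0189). The lower ones held 4 of the prefoldin subunits, which pass actin and tubulin to TRiC: PFDN1 (-1.40), PFDN5 (-1.61), PFDN6 (-2.49) and VBP1 (-2.35). PFDN2 and PFDN4 were not among them. PFDN6 had a labelled level of 6.832 ± 6.677 in DMSO and 1.173 ± 1.019 with JQ1 (SD, n = 2 each), so its estimate is uncertain. These falls exceed the shift of 0.86 that TMM brings. Whether the calls hold under TMM or with a library left out is not reported here. GRPEL2, a nucleotide exchange factor of mitochondrial HSP70, was lower in labelled RNA (-1.75) and in total RNA (-1.13, SE 0.14, edgeR adjusted p = 4.71e-07). With A-485 none of the 40 was called by edgeR, with 0 lower and 2 higher at an unadjusted p under 0.05, and against JQ1 16 were higher (background 24.8%). In total RNA 10 of 44 were lower with Actinomycin D (background 19.7%) and 9 of 44 with AZ-5576 (background 12.9%), led by DNAJB9, a J protein of the endoplasmic reticulum (-2.73 and -3.28). HSPA6, an inducible HSP70, was higher with AZ-5576 (0.76, SE 0.26, edgeR adjusted p = 0.0457, background 0.782% higher). It had no labelled read with AZ-5576 or Actinomycin D. Its mean total level was 35.9 in DMSO, 60.6 with AZ-5576 and 54.6 with Actinomycin D.

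The last list held 7 genes known to respond to HSF1 that are not chaperones, all of them tested. IER5, whose product binds HSF1, rose with JQ1 in labelled RNA (0.97, SE 0.21, edgeR adjusted p = 9.83e-05) and in total RNA (1.17, SE 0.11, edgeR adjusted p = 1.55e-09). It fell with A-485 in labelled RNA (-1.11, SE 0.23, edgeR adjusted p = 0.000104) and in total RNA (-0.89, SE 0.12, edgeR adjusted p = 1.95e-06). The autophagy receptor SQSTM1 (-1.16, SE 0.23, edgeR adjusted p = 2.12e-05) also fell with A-485 in labelled RNA. With JQ1 IER5 was the 1 gene of the list called, and the other labelled estimates ran from -0.35 (ZFAND2A) to 0.33 (UBB). The background was 1.26% higher with JQ1 and 4.86% lower with A-485 in labelled RNA, and 0.837% and 1.2% in total RNA. By the labelled share no gene of the list was called with either drug, with IER5 at -0.26 and -0.27. Set against JQ1, levels with A-485 were lower for IER5 (-2.08), SQSTM1 (-1.41) and UBB (-0.51).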

How the data were processed

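SLAM-seq of K562 cells was used, with 2 libraries in each of 5 groups, assigned by sample title. Per the labels' protocols, iodoacetamide treatment marked the 4-thiouridine, Drosophila S2 RNA (5%) served as spike-in, and libraries were of the 3′ mRNA kind. The authors deposited raw counts per gene: total human reads, labelled human reads (T-to-C) and spike-in reads. Of these columns, 0 went unused. Per the submitters' processing notes, the tools included Trim Galore 0.6.5, bcl2fastq 2.17.1.14 and bedtools, and the builds hg38 and dm6. For the aligner and the conversion caller, these sources name none. Labelled counts exceeded total counts in 0 entries.

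Counts were tested in R 4.3.3 with edgeR 4.0.16 (robust quasi-likelihood, two-sided). Library size was the spike-in sum, all 10 libraries entered 1 fit, and a gene needed 10 or more counts in 2 or more libraries. This left 7996, 14572 and 7960 genes for labelled RNA, total RNA and labelled share, with 5 residual degrees of freedom each. The share test fitted labelled and unlabelled counts with 1 intercept per library. Adjusted p-values (Benjamini-Hochberg, threshold 0.05) run over all genes tested, and intervals are 95%. The scripts were tested on simulated data. There edgeR recovered 30% of true log2 changes of 1 in labelled RNA, 84% in total RNA and 5.1% by the labelled share. The simulation drew labelled and unlabelled counts independently, which lowers recovery by the share. It changed a small part of the genes, picked from those with more counts, and held no fall shared by most genes. Its recovery rates are thus not the power of the tests above. A member that did not pass is not shown to be unchanged. Depth limits labelled values most, since labelled reads were 1410 to 448401 per library. Floors cover counting error only. Positions of genes are from GENCODE on hg38 and promoters from RefSeq.

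Alternatives were TMM, DESeq2 1.42.0 with spike-in or its own size factors, no filter, the 2 groups compared alone, a replicate block and each library left out. The members and lists were chosen with earlier results of these data known. Values per library are given for members called with JQ1 or A-485 in labelled RNA or with any drug in total RNA, and for the member of each role with most labelled reads in DMSO; genes of the other lists are named only where called, and 1 of them is not reported here. HSPA9, HSPA13, DNAJB6 and other members named outside this rule were chosen after their values were seen.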

Additional observations from a re-analysis of the deposited data

How the results depend on the processing

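Scaling mattered most. With TMM, members lower in labelled RNA were 18 with Actinomycin D, 16 with AZ-5576 (2 higher), 1 with JQ1 (9 higher) and 1 with A-485 (1 higher), and 9 were lower and 0 higher with A-485 against JQ1. In total RNA TMM gave 3 lower and 11 higher with Actinomycin D, 7 higher with AZ-5576, 0 lower with JQ1 and 1 lower with AZ-5576 against Actinomycin D. DESeq2 with its own size factors gave 21, 23 and 1 lower in labelled RNA with Actinomycin D, AZ-5576 and JQ1 (8 higher), and 11 lower and 0 higher for A-485 against JQ1. In total RNA it gave 2 lower and 11 higher with Actinomycin D, 7 higher with AZ-5576, 0 lower with JQ1 and 1 lower for AZ-5576 against Actinomycin D. These scalings remove a change shared by most genes by their construction. Under TMM the sign turned in labelled RNA with JQ1 for HSPE1 (0.15), CCT2 (0.15), CCT3 (0.34), CCT5 (0.21) and CCT8 (0.20), and with DESeq2's own size factors for CCT3 (0.18), CCT5 (0.037) and CCT8 (0.041). With AZ-5576 it turned under TMM for HSPA4 (0.081), HSPA9 (1.13), HSP90AB1 (0.41), DNAJB6 (1.19), BAG3 (0.75), STIP1 (0.45), PTGES3 (0.23), CCT4 (0.66) and CCT8 (0.47), and with DESeq2's own size factors for HSPA9 (0.58), DNAJB6 (0.64), BAG3 (0.20) and CCT4 (0.10).

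With no filter 5 members were lower with JQ1 in labelled RNA and 0 higher by the share, and the 2 groups alone gave 5 lower by the share. DESeq2 with spike-in factors gave 2 lower with JQ1 in total RNA. Leaving out 1 library in turn gave 1 to 6 lower and 0 to 3 higher with JQ1 in labelled RNA, 1 to 2 lower with A-485, and 2 to 4 lower and 1 to 6 higher with A-485 against JQ1. In total RNA it gave 3 to 6 lower with Actinomycin D, 0 to 2 lower with JQ1 and 0 to 0 lower with A-485, and by the share with JQ1 1 to 2 lower and 0 to 1 higher. The cause of these losses was not tested. The calls on HSPB1 with JQ1 and A-485, on DNAJB1 in total RNA with Actinomycin D, AZ-5576 and JQ1, and on HSF2 with Actinomycin D and AZ-5576 held in each alternative run.

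The replicate numbers come from the labels and do not say that libraries were paired. Same-numbered libraries deviated together by r of 0.0435 to 0.1019 in labelled RNA (845 genes, 3 pairs of groups, median 0.0473). In total RNA r ran from -0.0750 to 0.2694 (9294 genes, 10 pairs of groups, 6 of them over 0.1, median 0.1777). Most pairs of groups thus deviated together in total RNA, though weakly and not all of them. The labels give no pairing, so the main fit held no replicate block, and calls in total RNA depend on that choice. With the replicate block, 5 members were lower with JQ1 in total RNA, 1 was higher with AZ-5576, 1 was lower with AZ-5576 against Actinomycin D, and 0 were higher by the share with JQ1. The block also moved DNAJB1 with JQ1 in labelled RNA to an adjusted p of 0.0573 and CCT3 to 0.0528 (edgeR), HSPA1A by the share to 0.0576, and HSPA9 and BAG1 with A-485 against JQ1 to 0.0608 and 0.0715.

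Over all genes, calls with JQ1 in labelled RNA were 2286 lower and 101 higher, and TMM gave 393 and 482. In labelled RNA with A-485 they were 389 and 13, with 191 lower without the first DMSO library, and against JQ1 251 and 1984, with 596 and 507 under TMM. In total RNA they were 2874 and 49 with Actinomycin D (TMM 1153 and 791), 1878 and 114 with AZ-5576 (TMM 1210 and 546) and 1071 and 122 with JQ1 (TMM 288 and 214, block 1972 lower). Depth limits most the labelled values of HSPA4L and DNAJB2, too low to test, and of HSPA13 and SERPINH1.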

Other observations

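In total RNA the second library of a group lay above the first in all 5 groups for 11 of 40 members (27.5%), against 13.7% of 14572 genes tested. The 11 were FKBP4, HSP90AB1, DNAJB6, HSPB1, TCP1, CCT3, CCT5, CCT6A, CCT7, CCT8 and HSF1. The reverse order held for 1 member (2.5%) and for 2.11% of all genes tested. Spike-in reads made up 10.89% of all reads in the first DMSO library and 10.01% in the second. The share was also lower in the second library of every drug group, for example 11.67 and 11.02% for JQ1. The total level summed over all genes was therefore higher in each second library. How much of the order seen in members comes from this shift was not tested. Its part in the total levels above was not tested either.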
